A study of Saccharomyces cerevisiae with 30 samples.

Results

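A set of 81 yeast genes outside the RPL, RPS and RPP families had at most 0.5 times their control transcript level after 45 min of diazaborine (DZA), a drug that blocks maturation of the large ribosomal subunit. They were selected on that table: genes with names starting with Y, a mean normalized count of at least 100 over the 4 libraries, and a ratio of DZA to DMSO, with 1 added to each mean, of at most 0.5 in the mean and in both same-letter pairs of libraries. Of 7126 features in the table, 5553 such genes passed the mean and 209 passed the ratio (3.76%), and 128 of these had standard names beginning with RPL, RPS or RPP and were left out. Because the 45 min values chose the members, they are given below as a description and were not tested. The members were then followed through the other tables, which the choice did not use.

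rRNA-depleted RNA of Saccharomyces cerevisiae in mid-log phase in rich medium (YPD) was sequenced. BY4741 cells received 15 µg/ml DZA or 0.1% DMSO for 15 or 45 min. Strains with an auxin-inducible degron (AID) on 1 rRNA processing factor, namely LAS1-AID, RAT1-AID, RRP17-AID and RRP44-AID, were mock-treated or given 100 µM auxin for 20 min, and the WT strain of that set had no AID tag. All 5 of these strains carry the plant auxin receptor osTIR1 under the GPD1 promoter and RPB3-3xFLAG in a BY4741 background, and the tag is 3xV5-IAA7 with a KanMX6 marker. An RPB3-3xFLAG strain received 1.5 mM diamide, a thiol oxidant, and was sampled at 0 and 15 min with 1 library each. Every other group had 2 libraries, A and B. Las1 is an endonuclease, Rat1 and Rrp17 are 5′-exonucleases and Rrp44 is the 3′-exonuclease of the exosome. Auxin depletes the tagged proteins, so transcript counts do not check the depletion, and the tag on Rrp17 impairs it in part even without auxin. The study describes its DZA RNA-seq as 2 biological replicates. Neither it nor the labels say how A and B were separated, so p-values there measure only the spread between these libraries.

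Ribosome production takes a large share of the transcription of a growing yeast cell, and r-protein genes are lowered together when growth is disturbed. Cells at the same time tune the genes that feed biosynthesis. Amino acid, purine, pyrimidine and sterol synthesis are each controlled by dedicated transcription factors, such as Gcn4 for amino acids and Bas1 for purines and histidine, and permeases for iron, phosphate, sugars and nucleobases are set by the supply of what they carry. Hsf1, the heat-shock factor, drives chaperone genes such as HSP82.

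By function, 10 members serve amino acid synthesis and uptake, 9 purine, one-carbon and cofactor synthesis, 4 pyrimidine synthesis and uptake, 5 sterol and sphingolipid metabolism, 4 iron and phosphate uptake, 7 glucose use and storage carbohydrate, 6 mitochondria, 6 mating type and cell cycle, 5 the cell surface and membranes, and 4 translation or the ribosome. A further 10 are short loci that overlap or adjoin r-protein genes, and 11 have other or unknown roles. The roles are loose in places. YHM2, a mitochondrial carrier, and HMF1 were counted with the amino acid genes but are on no amino acid list used here. The name non-ribosomal fits the rule but not every member: ASC1 encodes a protein of the small ribosomal subunit (the yeast RACK1), and STM1 and SSB1 encode a ribosome-bound protein and a ribosome-bound chaperone. The RefSeq annotation of assembly R64 lists 73 of the members and not the other 8.

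The stretches below show promoters of 5 purine and one-carbon genes and of HIS4 that hold the word TGACTC, the core to which Gcn4 and Bas1 bind. Each is 150 bases long and starts 250 bases before the start codon on RefSeq R64, read 5′ to 3′ on the strand of the gene. Capitals mark TGACTC, or GAGTCA where the word lies on the other strand.
ADE17, chrXIII:509381-509530, minus strand: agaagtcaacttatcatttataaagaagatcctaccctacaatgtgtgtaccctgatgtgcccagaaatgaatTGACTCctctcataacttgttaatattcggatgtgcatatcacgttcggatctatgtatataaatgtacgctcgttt
ADE12, chrXIV:234163-234312, plus strand: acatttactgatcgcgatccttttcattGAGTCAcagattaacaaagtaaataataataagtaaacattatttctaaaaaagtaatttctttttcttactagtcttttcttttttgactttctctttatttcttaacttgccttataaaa
DFR1, chrXV:780656-780805, plus strand: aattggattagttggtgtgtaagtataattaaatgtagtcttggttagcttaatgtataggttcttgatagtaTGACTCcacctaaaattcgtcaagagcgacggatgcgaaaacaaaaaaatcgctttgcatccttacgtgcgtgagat
GCV2, chrXIII:637250-637399, plus strand: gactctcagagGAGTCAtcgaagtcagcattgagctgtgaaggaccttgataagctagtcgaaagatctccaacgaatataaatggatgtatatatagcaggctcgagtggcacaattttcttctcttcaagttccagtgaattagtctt
SHM2, chrXII:259502-259651, minus strand: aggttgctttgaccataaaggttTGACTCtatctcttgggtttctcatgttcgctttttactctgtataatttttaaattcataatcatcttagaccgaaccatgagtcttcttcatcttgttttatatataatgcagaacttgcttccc
HIS4, chrIII:68434-68583, minus strand: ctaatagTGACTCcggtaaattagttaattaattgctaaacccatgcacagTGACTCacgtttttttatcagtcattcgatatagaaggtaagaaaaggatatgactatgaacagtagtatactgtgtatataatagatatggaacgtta
HIS4 holds the word at 2 positions and the others shown at 1. Over windows from 250 bases before to 50 after the start, both strands, 10 of 73 members with a promoter hold TGACTC (13.7%), against 479 of 6020 promoters of all genes (7.96%) and 8 of 128 r-protein promoters (6.25%). The other 4 are HIS1, MUP1, URA4 and YPL199C. Of the 9 members in purine, one-carbon and cofactor synthesis, 5 hold it.

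FET3 and FTR1, which together make the high-affinity iron uptake system, are shown because their promoters hold CACCC, the core of the site of the iron regulator Aft1, in capitals.
FET3, chrXIII:388572-388721, plus strand: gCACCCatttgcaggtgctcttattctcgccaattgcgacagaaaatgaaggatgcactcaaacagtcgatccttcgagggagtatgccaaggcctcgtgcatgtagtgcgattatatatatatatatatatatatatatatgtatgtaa
FTR1, chrV:461841-461990, minus strand: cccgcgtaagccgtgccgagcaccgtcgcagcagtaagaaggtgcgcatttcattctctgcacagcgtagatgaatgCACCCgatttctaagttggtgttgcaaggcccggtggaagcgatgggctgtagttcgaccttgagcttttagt
CACCC is a common word: 13 of 73 members (17.8%) and 1202 of 6020 genes (20%) hold it. The longer TGCACCC, which contains CACCC, was found in FTR1 and WSC4 among the members, and in 78 of 6020 genes (1.3%). The window of FET3 begins 1 base before its CACCC, so the longer word could not be found at that match. AAATTTT, the core of the RRPE element of ribosome biogenesis genes, was found in 25 members (34.2%), 23.1% of all genes and 28.9% of r-protein genes. The stress element AGGGG was found in 21.9% of members and 21.6% of all genes, and GATGAG, the PAC core, in 15.1% and 20.3%. CACGTG, the word of Pho4 and Cbf1, was found in 3 members (4.11%) and 2.91% of all genes. A match describes the letters and does not show that a factor binds.

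In the 45 min table the median log2 fold change of the members was -1.41, against -1.69 for the 128 r-protein genes that passed the same ratio and -0.01 for 6476 features tested. Single members ranged from -2.79 to -1.03. At 15 min, in separate libraries, the median was -0.79 (-0.76 for the r-protein genes and -0.02 for all features). There 76 of 81 members lay below 0, against 3243 of 6311 features. The median was -0.38 after depletion of Rat1, -0.38 after Rrp44, -0.71 after Las1 and -0.34 after Rrp17, with 63, 72, 75 and 77 members below 0. Of all features, 3330 of 6524, 3237 of 6343, 3171 of 6103 and 3034 of 6100 lay below 0 there. In WT cells given auxin the median of the members was 0.09, with 28 of them below 0, against 3303 of 6295 features. Across both DZA times and the 4 depletions, 47 members lay below 0 in every table, the sign at 45 min being fixed by the choice. The share of all features that did so was not computed.

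**Figure D1:**
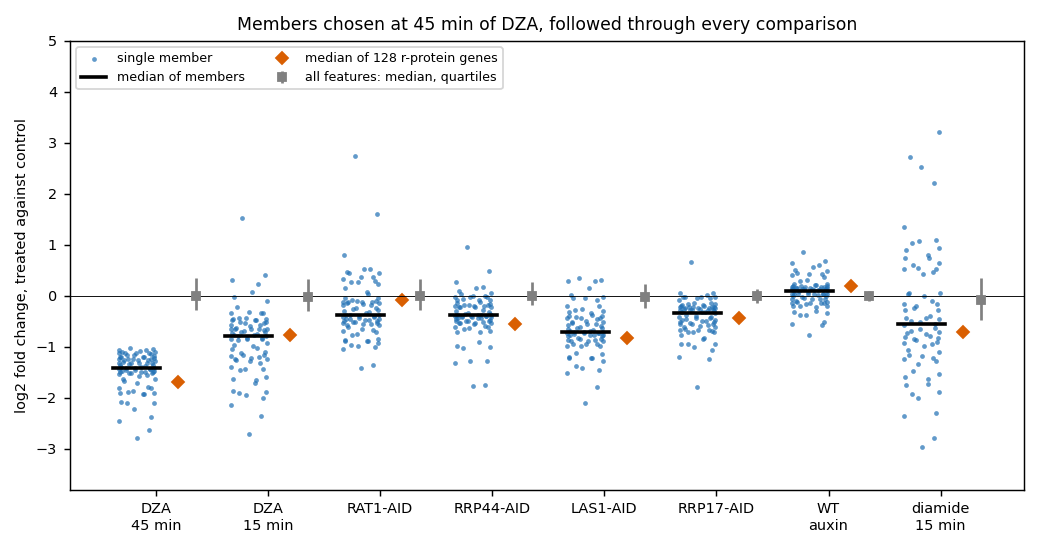
Log2 fold change of treated against control libraries (y axis, log2 of normalized count + 1, or of RPKM + 0.1 for diamide) for the 81 members (75 for diamide) in each comparison (x axis). Points are members, black bars their medians, orange diamonds the medians of the 128 r-protein genes and grey squares with bars the median and quartiles of all features; the members' median is -1.41 at 45 min of DZA, where they were chosen, -0.79 at 15 min, -0.71 in LAS1-AID and 0.09 in WT cells with auxin.

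For each table other than 45 min and RRP17-AID, log2(normalized count + 1) was tested with limma over all features with a mean of at least 10, and a gene was called at a Benjamini-Hochberg adjusted p under 0.05. All 81 members passed that filter in every table. After 15 min of DZA 16 members fell, where 1.13% of all features were called lower, and 0 rose, where 3.8% of all features did. With no adjustment (p under 0.05) 57 members were lower and 0 higher, against 770 and 890 of 6311 features. At the adjusted threshold edgeR and DESeq2 also called 0 members higher. After Rat1 depletion 11 members fell (6.02% of all features) and 2 rose (10.7%). After Rrp44 depletion 36 fell (10.2%) and 1 rose (15.1%), and after Las1 depletion 62 fell (17.2%) and 1 rose (16.5%). In WT cells given auxin limma called 0 members lower and 0 higher (0% and 0% of all features). At an unadjusted p under 0.05, 0 members were lower and 4 higher, against 25 and 23 of 6295 features. At the adjusted threshold edgeR and DESeq2 called 0 members in each direction. With the replicate letter as a block, 28 members fell after Rat1 depletion (11.3% of all features), 2 rose after Rrp44 depletion (20.1%) and 3 rose after Las1 depletion (23.7%). Among the 5 tested tables, 12 members were called lower in none, 29 in 1, 25 in 2, 14 in 3 and only LCB3 in 4. The matching spread over all features was not computed, so these counts are a description only.

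These counts rest unevenly on single libraries. At 15 min the DMSO libraries differed from each other by a median of 0.327 log2 units over all features, against 0.119 between the DZA libraries. Leaving out either DMSO library raised the share of all features called lower, and leaving out either DZA library lowered it. The count of members called lower moved in the same directions. After Rat1 depletion the count and the share both fell without either mock library. They both rose without auxin A, while without auxin B the count rose and the share fell. Without auxin A more members were also called higher there, while the share of all features called higher fell. After Rrp44 depletion the count and the share called lower both fell without either auxin library and rose without either mock library. After Las1 depletion both fell without either mock library and rose without either auxin library. Of the single calls, none at 15 min of DZA, 4 after Rat1, 11 after Rrp44 and 44 after Las1 depletion stayed past the threshold under every setting run. The 4 after Rat1 depletion were COA2, FUI1, HXT4 and CIN2, the last 2 of them rises. The matching counts over all features were not computed. Reads on features ranged from 15014154 to 99585064 over 27 libraries (median 31111173). In these bulk samples, fewer cells that express a gene and less of its RNA per cell cannot be told apart.

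**Figure D2:**
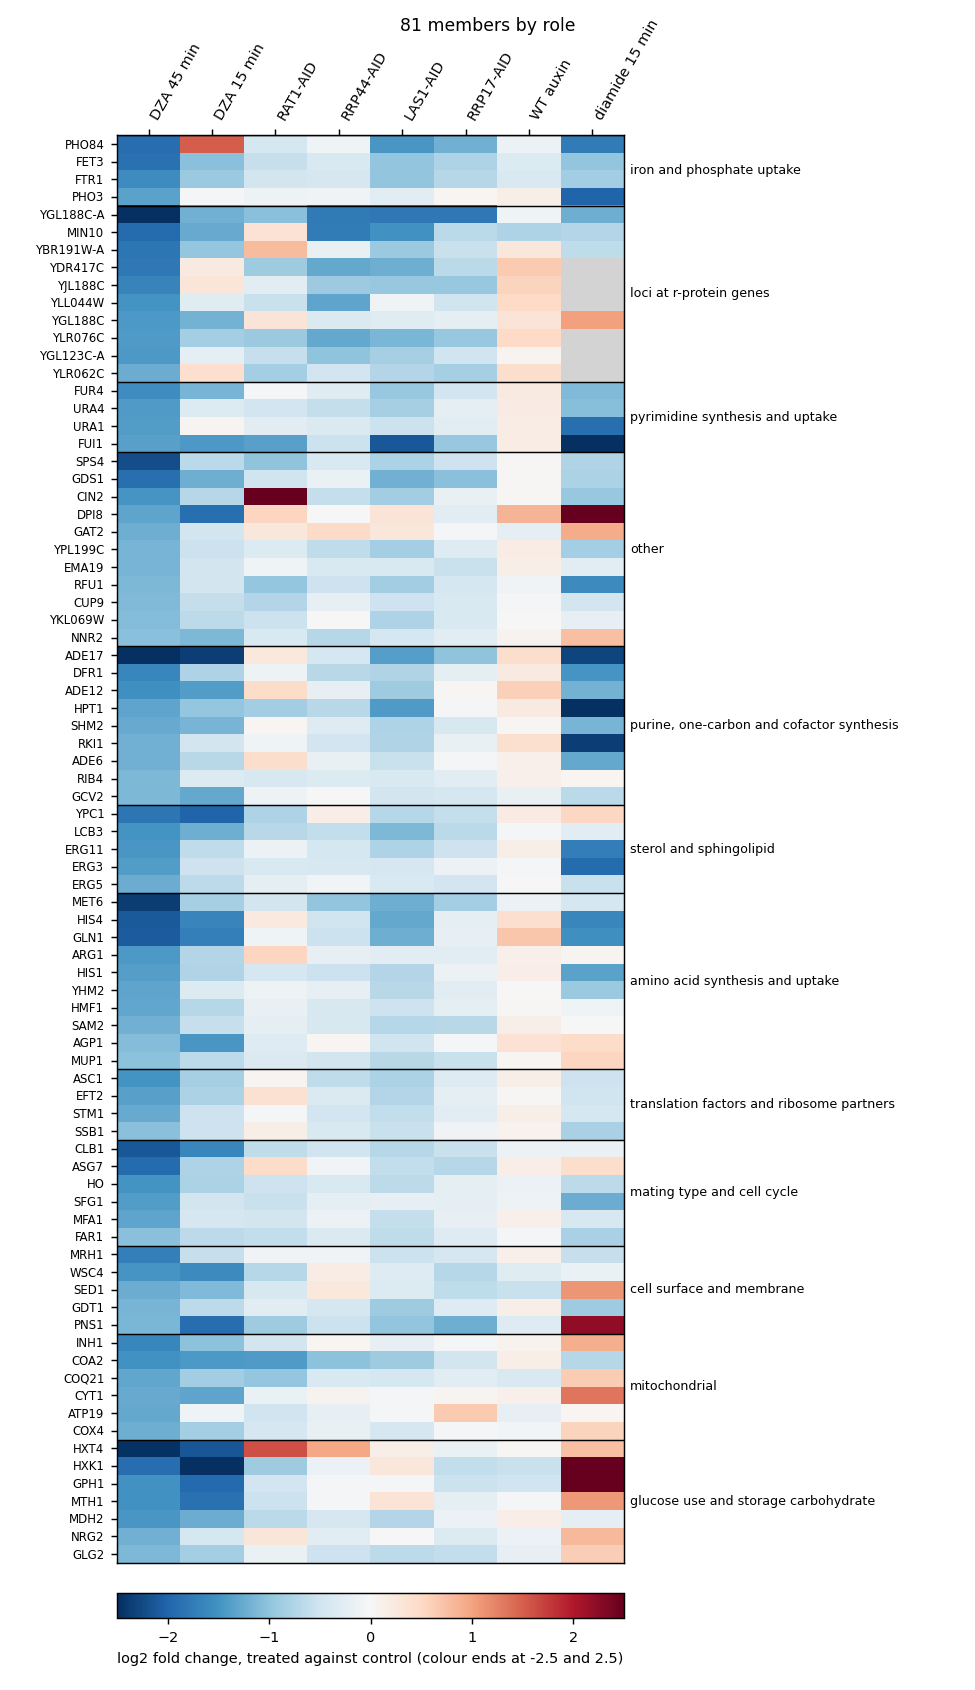
Log2 fold change (colour, ending at -2.5 and 2.5) of each of the 81 members (lines of the map, grouped by role) in 8 comparisons (columns); grey marks a mean below 1 RPKM in the diamide files. The LAS1-AID column is blue for all 10 genes counted under amino acid synthesis and uptake and all 9 purine, one-carbon and cofactor genes. The glucose genes are near 0 there (median 0.01) and mostly red with diamide (median 0.81).

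Genes of amino acid synthesis and uptake, YHM2 and HMF1 counted among them, were called lower in all 10 cases after Las1 depletion (17.2% of all features). They were called lower in 5 of 10 after Rrp44 depletion (10.2%), in 5 at 15 min of DZA (1.13%) and in none after Rat1 depletion (6.02%). MET6, methionine synthase, had 44581 and 40278 normalized counts with DMSO and 8485 and 7876 with DZA at 45 min, 5.19-fold lower. At 15 min its counts were 29997 and 34308 with DMSO and 18418 and 17628 with DZA (log2 fold change -0.83, SE 0.14, adjusted p = 0.0447). Its DZA libraries lay below both DMSO libraries at 15 min, which the choice did not use. After Las1 depletion MET6 went from 13388 and 12535 in mock to 6135 and 4983 (-1.23, SE 0.11, adjusted p = 0.000141), and after Rrp44 depletion from 12165 and 12027 to 6399 and 5899 (-0.98, SE 0.08, adjusted p = 0.000475). In RRP17-AID, with 1 mock library, the counts were 19098 in mock and 10693 and 10588 with auxin. In RAT1-AID MET6 was at 26934 and 29685 in mock and 20059 and 21370 with auxin, which do not overlap but did not pass the test (adjusted p = 0.0775).

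HIS4, a multifunctional enzyme of histidine synthesis, had 18462 and 18509 counts with DMSO and 4187 and 4386 with DZA at 45 min (4.31-fold lower), and 22949 and 16429 against 5989 and 6435 at 15 min (-1.64, SE 0.19, adjusted p = 0.0302). After Las1 depletion it fell from 11113 and 11039 to 5144 and 4025 (-1.28, SE 0.12, adjusted p = 0.00014). In RAT1-AID its counts were 10223 and 16027 in mock and 10383 and 21954 with auxin. There the B libraries were higher than the A libraries in both conditions, and mock and auxin overlapped (0.24, adjusted p = 0.708). HIS1, which encodes the enzyme of the first step of histidine synthesis, fell at 15 min (-0.75, adjusted p = 0.0424), after Rrp44 (-0.54, adjusted p = 0.00753) and after Las1 depletion (-0.73, adjusted p = 0.00057).

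GLN1, glutamine synthetase, had 48224 and 46492 counts with DMSO and 11135 and 11294 with DZA at 45 min (4.22-fold lower). At 15 min it had 28289 and 31236 against 8998 and 9126 (-1.71, SE 0.13, adjusted p = 0.015), and its DZA libraries lay below both DMSO libraries there. After Las1 depletion it went from 15451 and 13512 to 6566 and 5810 (-1.23, SE 0.11, adjusted p = 0.000108), and after Rat1 depletion from 32165 and 31681 to 27926 and 31174 (-0.11, adjusted p = 0.65). The difference between these responses was itself past the threshold (interaction -1.11, SE 0.17, adjusted p = 0.0203), but not under every setting run. In WT cells GLN1 was at 41246 and 33619 in mock and 63068 and 57052 with auxin (0.69), the opposite direction, and was not called there.

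ARG1, argininosuccinate synthetase, was 2.7-fold lower at 45 min and had a small but called fall after Las1 depletion (-0.27, adjusted p = 0.0375). SAM2, S-adenosylmethionine synthetase, fell after Las1 (-0.72) and Rrp44 depletion (-0.41), and MUP1, the high-affinity methionine permease, passed the test after Las1 depletion (-0.68, adjusted p = 0.00145). With the replicate block MUP1 and HIS4 also fell after Rrp44 depletion (adjusted p = 0.00387 and 0.000806). AGP1, a broad amino acid permease, fell after Las1 depletion (-0.49) and had 2873 and 2375 counts with DMSO and 899 and 1020 with DZA at 15 min (-1.45, adjusted p = 0.0308), a larger difference than at 45 min (-1.09). YHM2, a mitochondrial carrier of citrate and oxoglutarate, fell after Las1 depletion (-0.69) and HMF1 after Las1 (-0.51) and Rrp44 depletion (-0.40). Of the 57 measured genes of a textbook list of amino acid synthesis genes of the Gcn4 regulon, to which HIS4, GLN1, ARG1 and HIS1 belong, 18 fell and 4 rose after Las1 depletion, where 17.2% of all features fell and 16.5% rose. After Rrp44 depletion 9 fell and 4 rose, where 10.2% of all features fell and 15.1% rose, and at 15 min of DZA 4 of 56 fell and 0 rose, where 1.13% fell and 3.8% rose. A textbook list of methionine and sulfur assimilation, with MET6, SAM2 and MUP1, had 26 genes tested. Of these 7 fell and 3 rose after Las1 depletion, 7 fell and 4 rose after Rrp44 depletion, and 1 fell and 0 rose at 15 min of DZA. The median log2 fold change of its 25 genes over the mean was 0.04 at 45 min.

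**Figure D3:**
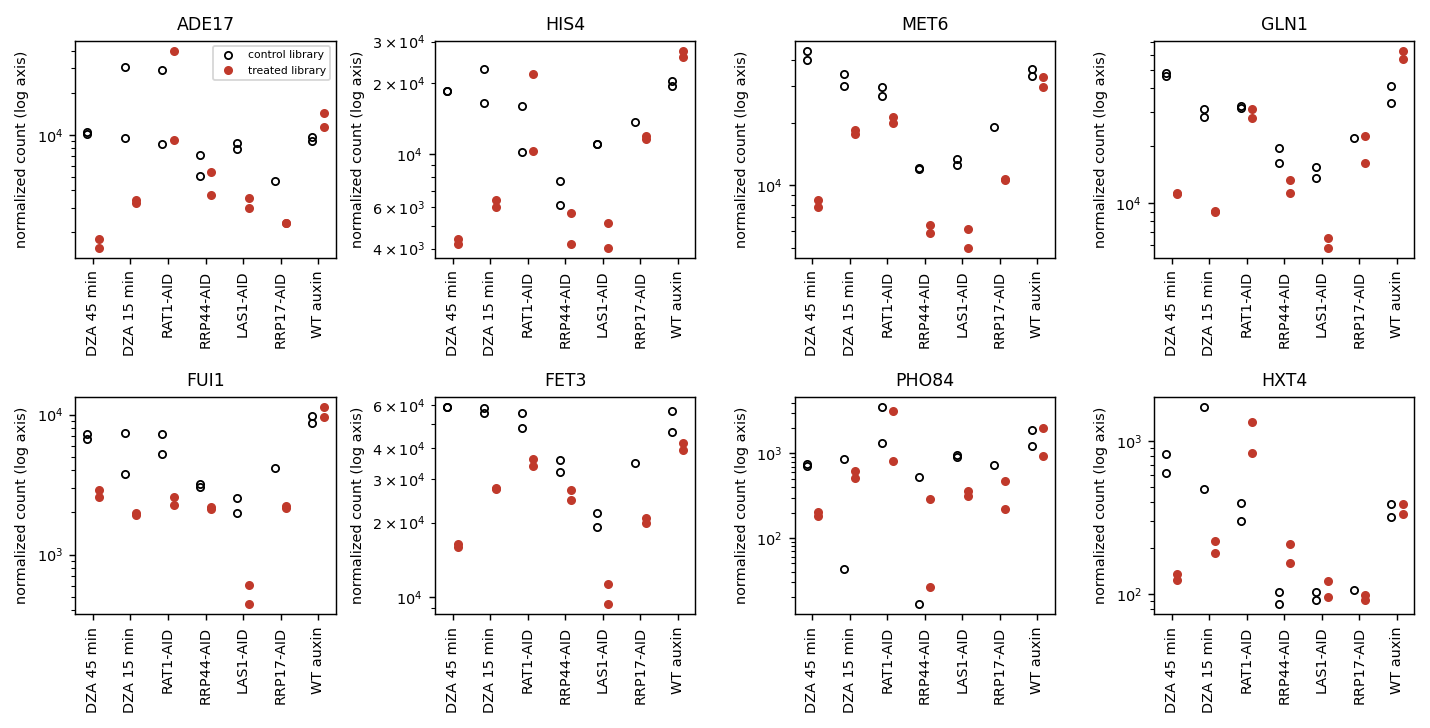
Normalized counts (y axis, log scale, a scale of its own for each gene) of ADE17, HIS4, MET6, GLN1, FUI1, FET3, PHO84 and HXT4 in each library of the 7 tables (x axis); open circles are control libraries (DMSO or mock) and filled circles treated libraries, and levels of different tables were normalized separately. ADE17 shows control libraries that differ widely at 15 min (30397 and 9426) and in RAT1-AID (8592 and 29221), while FET3 shows treated libraries below the controls in each of these tables.

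All 9 genes of purine, one-carbon and cofactor synthesis fell after Las1 depletion (17.2% of all features) and 4 fell after Rrp44 depletion (10.2%). At 15 min of DZA 2 fell (1.13%), and after Rat1 depletion none did (6.02%). ADE17, which carries out the last steps to inosine monophosphate, had 10054 and 10420 counts with DMSO and 1541 and 1777 with DZA at 45 min, 6.17-fold lower. At 15 min the DMSO libraries held 30397 and 9426 and the DZA libraries 3222 and 3423 (-2.35, SE 0.54, adjusted p = 0.076). Both DZA libraries lay below both controls, but the controls differed from each other by more than 3-fold. In RAT1-AID the counts were 8592 and 29221 in mock and 9100 and 40177 with auxin, so that the letter of the library separated them and not the treatment (0.27, adjusted p = 0.848). After Las1 depletion ADE17 fell from 8793 and 7953 to 3535 and 2956 (-1.37, SE 0.11, adjusted p = 6.84e-05).

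ADE12, adenylosuccinate synthase, showed the same spread between controls, 15925 and 6308 with DMSO at 15 min and 5685 and 10243 in mock RAT1-AID. It was 2.88-fold lower at 45 min of DZA and fell after Las1 depletion (-0.89, adjusted p = 0.00112). HPT1, which salvages hypoxanthine and guanine, had 5043 and 4547 counts in mock and 1853 and 1741 after Las1 depletion (-1.41, SE 0.09, adjusted p = 1.94e-05). After Rrp44 depletion it went from 7229 and 6811 to 4259 and 4380 (-0.70, SE 0.08, adjusted p = 0.00154). The response to Las1 depletion was the stronger one by the test of the difference (interaction -0.71, SE 0.11, adjusted p = 0.0316), but not under every setting run. HPT1 also fell at 15 min of DZA (-0.97, adjusted p = 0.0384). After Rat1 depletion it was at -0.87, called only with the replicate block (adjusted p = 0.000482). The block also called ADE17 and SHM2 lower after Rrp44 depletion (adjusted p = 0.00192 and 0.0221).

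SHM2, the cytosolic serine hydroxymethyltransferase, and GCV2, a subunit of glycine decarboxylase, supply one-carbon units. SHM2 was 2.38-fold lower at 45 min and fell after Las1 depletion (-0.76, adjusted p = 0.00179). GCV2 had 14923 and 10173 counts with DMSO and 4791 and 5416 with DZA at 15 min (-1.27, adjusted p = 0.0462) and fell after Las1 depletion (-0.45). DFR1, dihydrofolate reductase, fell after Rrp44 (-0.69, adjusted p = 0.00423) and Las1 depletion (-0.76, adjusted p = 0.000943). ADE6, an enzyme of early purine synthesis, RKI1, ribose-5-phosphate ketol-isomerase, and RIB4, of riboflavin synthesis, had log2 fold changes of -0.57, -0.75 and -0.39 after Las1 depletion, all past the threshold.

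The 4 pyrimidine members all fell after Las1 depletion (17.2% of all features) and 3 of them after Rrp44 depletion (10.2%). FUI1, the uridine permease, had 2541 and 1966 counts in mock and 604 and 442 after Las1 depletion (-2.11, SE 0.16, adjusted p = 6.84e-05), the largest fall of any member in that table. After Rat1 depletion it went from 7225 and 5220 to 2577 and 2248 (-1.35, SE 0.19, adjusted p = 0.00505), and after Rrp44 depletion from 3209 and 3030 to 2202 and 2113 (-0.53, SE 0.08, adjusted p = 0.00505). The fall after Las1 depletion exceeded that after Rrp44 depletion (interaction -1.58, SE 0.22, adjusted p = 0.0201), a difference not past the threshold under every setting run. In RRP17-AID FUI1 had 4172 counts in mock and 2210 and 2142 with auxin, and in WT cells 8708 and 9691 in mock and 9670 and 11357 with auxin.

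FUR4, the uracil permease, was 2.96-fold lower at 45 min and fell after Las1 depletion (-0.94, adjusted p = 0.00363). URA4, dihydroorotase, fell in all 3 tested depletions, by 0.48, 0.60 and 0.84 on the log2 scale after Rat1, Rrp44 and Las1 depletion. URA1, dihydroorotate dehydrogenase, had 17891 and 21729 counts with DMSO and 20508 and 20898 with DZA at 15 min (0.07), and 32636 and 33574 against 12407 and 12714 at 45 min. Its libraries overlapped at 15 min, and their separation at 45 min was part of the choice. Of 32 measured genes of a textbook list of purine and pyrimidine synthesis, 7 of them members, 26 fell and 1 rose after Las1 depletion (all features 17.2% and 16.5%), 7 fell and 3 rose after Rrp44 depletion (10.2% and 15.1%), and 2 fell and 1 rose after Rat1 depletion (6.02% and 10.7%), while at 15 min of DZA 0 were called in either direction.

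The 5 sterol and sphingolipid genes all fell after Las1 depletion (17.2% of all features) and 3 fell after Rrp44 depletion (10.2%). After Rat1 depletion (6.02%) and at 15 min of DZA (1.13%) 1 fell each time. LCB3, a phosphatase of long-chain base phosphates, had 2839 and 2197 counts with DMSO and 996 and 1136 with DZA at 15 min (-1.23, SE 0.20, adjusted p = 0.0429). It fell from 2813 and 2512 to 1475 and 1824 after Rat1 (-0.70, SE 0.17, adjusted p = 0.0353), from 1157 and 1158 to 759 and 757 after Rrp44 (-0.61, SE 0.09, adjusted p = 0.00431) and from 1079 and 950 to 504 and 430 after Las1 depletion (-1.12, SE 0.12, adjusted p = 0.000292). Treated and control libraries did not overlap in any of these 4 tables. In WT cells with auxin LCB3 was at 2837 and 2800 in mock and 2498 and 2955 with auxin (-0.05).

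YPC1, an alkaline ceramidase, had 837 and 787 counts with DMSO and 238 and 222 with DZA at 45 min, 3.52-fold lower, and fell after Las1 depletion (-0.71, adjusted p = 0.0184) and, with the replicate block alone, after Rat1 depletion (-0.77, adjusted p = 0.0205). ERG11, lanosterol demethylase, was 2.72-fold lower at 45 min and fell after Rrp44 (-0.43) and Las1 depletion (-0.77). ERG3 and ERG5, sterol desaturases, were 2.65-fold and 2.36-fold lower at 45 min and had log2 fold changes of -0.43 and -0.39 after Las1 depletion. Of 29 genes of ergosterol synthesis, 3 of them members, 11 fell and 3 rose after Las1 depletion (all features 17.2% and 16.5%), and 0 were called at 15 min of DZA.

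FET3, the ferroxidase of iron uptake, had 58555 and 58915 counts with DMSO and 15929 and 16388 with DZA at 45 min (3.63-fold lower), and 58094 and 55390 against 27271 and 27678 at 15 min (-1.05, SE 0.13, adjusted p = 0.0306). Its partner permease FTR1 had 14332 and 15260 against 4820 and 5121 at 45 min (2.98-fold lower) and 14685 and 14323 against 7466 and 7784 at 15 min (-0.93, SE 0.12, adjusted p = 0.032). For both genes the DZA libraries lay far below the DMSO libraries at 15 min, which the choice did not use, and replicates were close. After Las1 depletion the changes were -0.99 for FET3 and -0.98 for FTR1, and after Rrp44 depletion -0.39 and -0.42, all past the threshold. In WT cells with auxin FET3 had 46670 and 56438 counts in mock and 39494 and 41862 with auxin (-0.34) and FTR1 -0.38, lower in both pairs but not called. After Rat1 depletion FET3 (-0.57) and FTR1 (-0.47) were called only with the replicate block (adjusted p = 0.0393 and 0.0336). Of 29 genes of a textbook iron regulon list, FET3 and FTR1 included, 12 fell and 4 rose after Las1 depletion (all features 17.2% and 16.5%), and 2 fell and 2 rose at 15 min of DZA (1.13% and 3.8%).

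PHO84, the high-affinity phosphate transporter, had 704 and 757 counts with DMSO and 184 and 203 with DZA at 45 min (3.76-fold lower). At 15 min it had 43.2 and 865 with DMSO and 512 and 613 with DZA, so that the DZA libraries lay between the 2 controls (1.52, SE 1.37, adjusted p = 0.535). Its counts also differed between A and B in RRP44-AID, 16.5 and 528 in mock and 26.1 and 290 with auxin. In LAS1-AID, where the replicates were close, it fell from 954 and 899 to 361 and 313 (-1.46, SE 0.11, adjusted p = 6.86e-05). PHO3, an acid phosphatase, was 2.54-fold lower at 45 min, had 10179 and 13542 counts with DMSO and 11429 and 11616 with DZA at 15 min, and changed by -0.28 after Las1 depletion (adjusted p = 0.0364).

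Genes of glucose use and storage carbohydrate had a median log2 fold change that was -1.50 after 45 min of DZA, -1.87 after 15 min, -0.49 after Rat1, -0.15 after Rrp44 and 0.01 after Las1 depletion. Of the 7 genes 2 fell at 15 min (1.13% of all features), 1 after Rat1 (6.02%), 1 after Rrp44 (10.2%) and 2 after Las1 depletion (17.2%). HXT4 rose after Rat1 and Rrp44 depletion. A textbook list of hexose transporters and glucose sensing holds 21 genes, with HXT4, HXK1 and MTH1. Of these 2 fell and 0 rose at 15 min (all features 1.13% and 3.8%) and 2 fell and 3 rose after Rat1 depletion (6.02% and 10.7%). After Rrp44 depletion 0 fell and 5 rose (10.2% and 15.1%), and after Las1 depletion 2 of 20 fell and 5 rose (17.2% and 16.5%). HXT4, a hexose transporter, had 618 and 830 counts with DMSO and 124 and 135 with DZA at 45 min (5.57-fold lower), and 1683 and 486 against 187 and 224 at 15 min (-2.14, adjusted p = 0.109). After Rat1 depletion it rose from 398 and 303 in mock to 842 and 1328 (1.60, SE 0.27, adjusted p = 0.0108), and after Rrp44 depletion from 103 and 86.2 to 213 and 161 (0.96, SE 0.20, adjusted p = 0.0154). After Las1 depletion it had 104 and 91.6 in mock and 122 and 96.3 with auxin (0.15, adjusted p = 0.589). Auxin libraries lay above both mock libraries in RAT1-AID and RRP44-AID and overlapped them in LAS1-AID. The call in RRP44-AID was lost without auxin A, while the call in RAT1-AID held in every setting.

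HXK1, a hexokinase, had 2970 and 2828 counts with DMSO and 762 and 780 with DZA at 45 min (3.76-fold lower), and 5227 and 1119 against 347 and 396 at 15 min (-2.70, SE 0.72, adjusted p = 0.0987). It fell after Rat1 depletion from 2333 and 2295 to 1065 and 1458 (-0.89, SE 0.19, adjusted p = 0.0228), and in LAS1-AID had 364 and 403 in mock and 478 and 456 with auxin (0.28). The difference between these responses passed the test (interaction 1.18, SE 0.22, adjusted p = 0.0428), but not under every setting run. GPH1, glycogen phosphorylase, likewise had unequal DMSO libraries at 15 min, 2744 and 664, with 350 and 354 in the DZA libraries. MTH1, a repressor in glucose sensing, had 427 and 529 counts with DMSO and 132 and 126 with DZA at 15 min (-1.87, SE 0.25, adjusted p = 0.0325). MDH2, the cytosolic malate dehydrogenase, fell at 15 min (-1.23, adjusted p = 0.0407) and after Las1 depletion (-0.73, adjusted p = 0.00296). GLG2, a glycogenin, fell after Las1 (-0.65) and Rrp44 depletion (-0.52). NRG2, a repressor of glucose-repressed genes, was called only with the replicate block, after Rrp44 depletion (-0.29, adjusted p = 0.0476). The block also called MDH2 lower after Rat1 (adjusted p = 0.0082) and Rrp44 depletion (0.016), and HXK1 and MTH1 higher after Las1 depletion (0.28 and 0.34, adjusted p = 0.0279 and 0.0408).

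Of the 6 mitochondrial members, COA2 was the 1 called after Las1 depletion without the replicate block (17.2% of all features were called lower). COA2, an assembly factor of cytochrome oxidase, had 600 and 720 counts in mock and 231 and 262 after Rat1 depletion (-1.41, SE 0.21, adjusted p = 0.00683), the largest fall of any member there. It went from 283 and 347 to 166 and 142 after Rrp44 (-1.03, SE 0.17, adjusted p = 0.00633) and from 273 and 265 to 144 and 147 after Las1 depletion (-0.89, SE 0.14, adjusted p = 0.00206). CYT1, cytochrome c1, had 3087 and 2165 counts with DMSO and 980 and 1103 with DZA at 15 min (-1.31, adjusted p = 0.0463) but -0.16, 0.09 and -0.04 after Rat1, Rrp44 and Las1 depletion. COX4, a subunit of cytochrome oxidase, and INH1, the inhibitor of the ATP synthase, were 2.35-fold and 3.09-fold lower at 45 min and were called in no table, but with the replicate block COX4 fell after Las1 depletion (-0.42, adjusted p = 6.4e-05). ATP19, a subunit of that synthase, had 5046 and 2806 counts with DMSO and 2241 and 1072 with DZA at 45 min, where the A libraries were the higher in each condition. COQ21 was 2.52-fold lower at 45 min and was called only with the block, after Rat1 depletion (-0.97, adjusted p = 0.0208).

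Members of mating type and the cell cycle included CLB1, a mitotic cyclin, with 4547 and 4015 counts with DMSO and 1165 and 839 with DZA at 45 min (4.27-fold lower) and a fall after Las1 depletion (-0.71, adjusted p = 0.000544). It was the only 1 of 19 listed genes of the G2/M cluster that was a member, and after Las1 depletion 1 of the 19 fell and 4 rose (all features 17.2% and 16.5%). ASG7, expressed in MATa cells, had 863 and 894 counts with DMSO and 232 and 231 with DZA at 45 min (3.78-fold lower), fell after Las1 depletion (-0.61, adjusted p = 0.0188) and was at 0.47 after Rat1 depletion (adjusted p = 0.207). HO, the endonuclease of mating type switching, and FAR1, which arrests the cell cycle in response to pheromone, fell in all 3 tested depletions, HO by 0.52, 0.39 and 0.66 and FAR1 by 0.61, 0.37 and 0.63 on the log2 scale after Rat1, Rrp44 and Las1 depletion. MFA1, a precursor of the a-factor pheromone, fell after Las1 depletion (-0.60), and SFG1, a nuclear regulator, was called only with the replicate block, after Rat1 (-0.56, adjusted p = 0.0145) and Las1 depletion (-0.20, adjusted p = 0.0249). The block also called CLB1 lower after Rat1 (adjusted p = 0.0046) and Rrp44 depletion (0.0015), and MFA1 after Rat1 depletion (0.0421).

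The translation and ribosome members all fell after Rrp44 depletion (10.2% of all features) and 3 of 4 fell after Las1 depletion (17.2%). None was called after Rat1 depletion (6.02% lower) or at 15 min of DZA (1.13% lower). ASC1 had 133871 and 105071 counts with DMSO and 46498 and 37868 with DZA at 45 min (2.83-fold lower), and fell after Rrp44 depletion from 57585 and 48606 to 33035 and 34682 (-0.64, SE 0.11, adjusted p = 0.00696). In RAT1-AID it had 117185 and 117384 in mock and 102084 and 148798 with auxin, on both sides of the controls. STM1 was 2.39-fold lower at 45 min and changed by -0.49 after Rrp44 and -0.62 after Las1 depletion. EFT2, a translation elongation factor, was 2.55-fold lower at 45 min, and its near-identical copy EFT1 had a log2 fold change of -0.89 there. SSB1 was 2.06-fold lower and fell after Rrp44 depletion (-0.38, adjusted p = 0.0311; 0.0506 with the replicate block). After Las1 depletion it was at -0.55, called only with the block (adjusted p = 0.0105). It too has a near-identical copy, SSB2, so the counts of EFT2 and SSB1 are uncertain. Of 33 listed translation factors, 7 fell and 0 rose after Rrp44 depletion (all features 10.2% and 15.1%) and 10 fell and 0 rose after Las1 depletion (17.2% and 16.5%).

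At the cell surface, WSC4, a sensor of cell wall stress, had 3110 and 2665 counts with DMSO and 987 and 928 with DZA at 15 min (-1.59, SE 0.17, adjusted p = 0.0215), close to its difference at 45 min (-1.48). PNS1, a membrane protein, had 2573 and 2264 counts in mock and 1063 and 1615 after Rat1 depletion (-0.88, adjusted p = 0.0407), and also fell after Rrp44 (-0.54) and Las1 depletion (-0.99). MRH1, a plasma membrane protein, had 48795 and 51810 counts with DMSO and 14668 and 16198 with DZA at 45 min, and fell after Las1 depletion (-0.54). GDT1, a Golgi transporter of calcium and manganese, fell after Rrp44 (-0.44) and Las1 depletion (-0.88). SED1, an abundant cell wall protein, was 2.36-fold lower at 45 min and was called in no table without the replicate block, with which it fell after Las1 depletion (-0.34, adjusted p = 0.00815). The block also called WSC4 lower after Rat1 (-0.70, adjusted p = 0.00823) and Las1 depletion (-0.32, adjusted p = 0.0004).

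CIN2, which acts in tubulin folding, was with HXT4 1 of the 2 members that rose after Rat1 depletion. It had 1637 and 1487 counts with DMSO and 614 and 513 with DZA at 45 min (2.77-fold lower). After Rat1 depletion it rose from 1240 and 1260 to 8996 and 7820 (2.75, SE 0.14, adjusted p = 0.000264). In RRP44-AID it fell from 494 and 515 to 325 and 340 (-0.60, SE 0.11, adjusted p = 0.00988) and in LAS1-AID from 504 and 538 to 288 and 284 (-0.86, SE 0.11, adjusted p = 0.000943). The response to Rat1 depletion differed from those to Las1 (interaction -3.61 for Las1 minus Rat1, SE 0.16, adjusted p = 3.76e-05) and to Rrp44 depletion (3.35 for Rat1 minus Rrp44, SE 0.16, adjusted p = 0.000159).

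CIN2 (chrXVI:95299-96266, minus strand, coordinates of the deposited RPKM files) begins 142 bases downstream of the end of HSP82 (chrXVI:96408-98681, minus strand), the gene of the Hsp90 chaperone, on the same strand. HSP82 rose from 29987 and 29728 to 109439 and 91471 after Rat1 depletion (1.74, adjusted p = 0.00145). It also rose after Rrp44 (2.02, adjusted p = 0.000416) and Las1 depletion (2.16, adjusted p = 1.19e-05) and at 15 min of DZA (3.15, adjusted p = 0.015), where CIN2 was at -0.60, -0.86 and -0.71. Of these 4 tables CIN2 rose in RAT1-AID, and HSP82 rose in each, and the part of reads from the upstream gene was not tested.

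**Figure D4:**
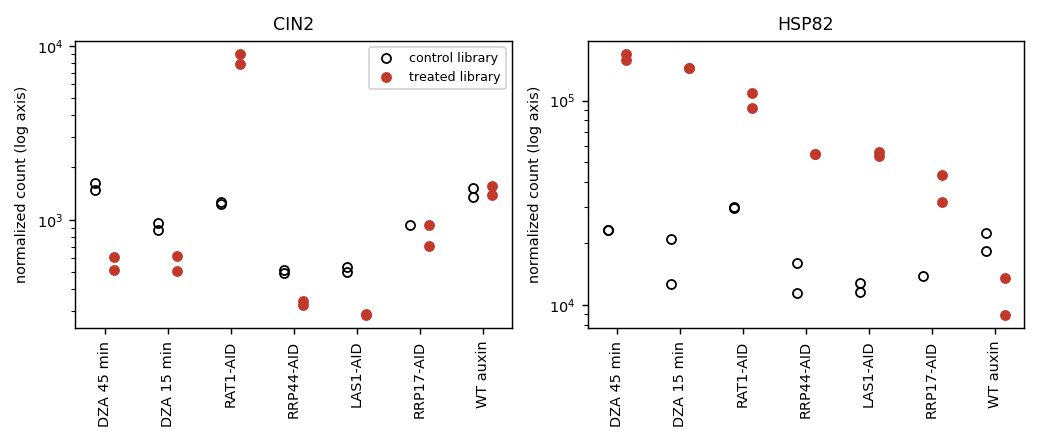
Normalized counts (y axis, log scale) of CIN2 and of HSP82, the next gene upstream on the same strand, in each library of the 7 tables (x axis); open circles are control and filled circles treated libraries. CIN2 rises in RAT1-AID to 8996 and 7820 and lies below its controls with DZA and in RRP44-AID and LAS1-AID, while HSP82 rises in each of them.

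Members with other roles were less uniform. SPS4, a sporulation gene 426 bases from RPL20B, had 790 and 671 counts with DMSO and 182 and 132 with DZA at 45 min (4.64-fold lower). It fell after Rat1 (-1.01, adjusted p = 0.0442) and Las1 depletion (-0.79, adjusted p = 0.00343). GDS1 had 17963 and 20232 counts against 4794 and 5569 at 45 min (3.69-fold lower), and 13209 and 14059 against 5425 and 6330 at 15 min (-1.22, SE 0.14, adjusted p = 0.028). After Las1 depletion it went from 7181 and 6762 to 3076 and 3022 (-1.19, SE 0.08, adjusted p = 3.51e-05), more than after Rat1 depletion (-0.50; interaction -0.69, SE 0.14, adjusted p = 0.047, and 0.0552 with the replicate block). DPI8 had 403 and 297 counts with DMSO and 95.5 and 91 with DZA at 15 min (-1.88, SE 0.28, adjusted p = 0.0387), the largest of the 16 falls in that table. RFU1, an inhibitor of the deubiquitinase Doa4, fell after Rat1 (-0.98), Rrp44 (-0.52) and Las1 depletion (-0.87).

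YKL069W, a methionine sulfoxide reductase, had 732 and 676 counts in mock and 425 and 397 after Las1 depletion (-0.77, SE 0.11, adjusted p = 0.00122). In RRP44-AID it had 1012 and 1085 in mock and 1016 and 1088 with auxin. The difference between the responses passed the test (interaction -0.78, SE 0.13, adjusted p = 0.0392), but not under every setting run. GAT2, a GATA-type regulator, was the only member called higher after Las1 depletion, with 802 and 825 counts in mock and 963 and 1022 with auxin (0.29, adjusted p = 0.0425), and lost the call without mock A, mock B or auxin B. YPL199C fell after Rrp44 (-0.64) and Las1 depletion (-0.84). CUP9, a transcriptional repressor, and NNR2, which repairs hydrated nicotinamide cofactors, fell after Las1 depletion (-0.51 and -0.44), NNR2 also after Rrp44 depletion (-0.71), and EMA19 was called only with the replicate block, after Rrp44 (-0.39, adjusted p = 0.0253) and Las1 depletion (-0.38, adjusted p = 0.00682). The block also called CUP9 (adjusted p = 0.00179) and YKL069W (0.039) lower after Rat1 depletion and GAT2 higher after Rrp44 depletion (0.0158). Over all 81 members the interaction tests called 4 for Las1 against Rat1 (2.44% of all features), 3 for Las1 against Rrp44 (0.805%) and 1 for Rat1 against Rrp44 (2.17%). Leaving out 1 library moved these counts, the highest of the first and last coming without auxin A of RAT1-AID. Without any 1 library of LAS1-AID the count for Las1 against Rat1 was lower. The shares of all features in those fits were not computed. With the replicate block the counts were 7, 12 and 2, where 2.9%, 2.69% and 2.66% of all features were called.

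The choice had close neighbours. CUP9 (ratio 0.494 in pair B), MUP1 (0.493 in pair B) and NNR2 (0.493 in pair A) lay just inside the ratio, and URA5, an enzyme of pyrimidine synthesis (0.501 in pair B), BNA7 (0.503 in pair B) and ATP20 (0.503 in pair A) just outside it. With a mean of at least 50 there would be 85 members and with at least 200 there would be 76, and with the ratio required in the mean alone 92.

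Many members lie beside r-protein genes. Of the 81 members 20 are within 1000 bases of an r-protein gene (24.7%), against 222 of 5335 other genes over the mean (4.16%), and 8 overlap one (9.88% against 0.3%). A group of 10 short loci makes up much of this. On the opposite strand, YDR417C overlaps RPL12B by 345 bases, YJL188C RPL39 by 309, YLL044W RPL8B by 437, YLR076C RPL10 by 423, YGL123C-A RPS2 by 231 and YLR062C RPL22A by 378. On the same strand, YBR191W-A overlaps RPL21A by 268 bases and MIN10 RPL29 by 84, and YGL188C-A and YGL188C lie 212 and 731 bases from RPS26A. YGL188C (chrVII:149343-149516) also lies across the end of COX4 (chrVII:149419-150634) on the same strand. Outside this group, ADE17 lies 358 bases from RPL15B on the same strand, and RPL15B had a log2 fold change of -0.75 at 45 min, -1.25 after Rat1 and -0.96 after Las1 depletion, where ADE17 had -2.63, 0.27 and -1.37. SPS4 lies 426 bases from RPL20B on the same strand. SPS4 and RPL20B were at -2.23 and -1.96 at 45 min and -0.68 and -0.74 at 15 min. They were at -1.01 and -0.11 after Rat1 and -0.79 and -0.80 after Las1 depletion. How far the counts of SPS4 come from RPL20B was not tested.

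The opposite-strand loci held few counts beside the r-protein genes they overlap. YDR417C had 247 and 471 counts with DMSO and 70.7 and 135 with DZA at 45 min (3.47-fold lower). Per 1000 counts of RPL12B, with no correction for length, that was 2.41 and 5.47 with DMSO and 2.51 and 5.22 with DZA. The ratio differed between letters more than between DMSO and DZA, and the log2 fold changes of the pair were -1.79 and -1.80. YJL188C had 6.92 and 14.5 counts per 1000 of RPL39 with DMSO and 6.68 and 14.4 with DZA, and YLL044W 1.13 and 2.69 per 1000 of RPL8B with DMSO and 1.21 and 2.58 with DZA. In auxin replicate A of WT cells YDR417C had 779 counts, against 193 in auxin B and 291 and 211 in mock, and YJL188C 816 against 215, 337 and 237. How far these counts come from the r-protein strand was not tested. At 15 min YDR417C had 90.4 and 128 counts with DMSO and 111 and 143 with DZA (0.22), where RPL12B was at -0.63. YJL188C and YLR062C were also above 0 (0.31 and 0.41, with RPL39 and RPL22A at -0.78 and -0.57). The other 3 opposite-strand loci were below 0 with their partners, YLR076C at -0.85 (RPL10 -1.08), YLL044W at -0.31 (RPL8B -0.59) and YGL123C-A at -0.22 (RPS2 -0.76), and none of the 6 was called.

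The same-strand locus YGL188C-A had the lowest ratio of all members at 45 min, with 452 and 307 counts with DMSO and 59.1 and 47.6 with DZA (7-fold lower), while RPS26A had 127646 and 107553 against 46102 and 41172 (-1.43). It fell after Rrp44 depletion from 131 and 140 to 41 and 37 (-1.77, SE 0.20, adjusted p = 0.00165) and after Las1 depletion from 92.4 and 79.4 to 31.8 and 18.3 (-1.78, SE 0.30, adjusted p = 0.00301), and had 153 in mock and 43.4 and 43.5 with auxin in RRP17-AID. With the replicate block YGL188C-A, YDR417C, YLR076C, YGL123C-A and YLR062C also fell after Rat1 depletion (adjusted p from 0.00683 to 0.039) and YJL188C and YLR076C after Rrp44 depletion (0.00523 and 0.0015). In the Rrp44, Las1 and Rrp17 tables the change of YGL188C-A was larger than that of RPS26A (-0.56, -0.73 and -0.35), a difference that was not tested. MIN10 had 272 and 107 counts with DMSO and 62.4 and 31.3 with DZA at 45 min (3.98-fold lower) and fell after Rrp44 (-1.74, SE 0.31, adjusted p = 0.0089) and Las1 depletion (-1.52, SE 0.25, adjusted p = 0.00247). YBR191W-A had 838 and 734 counts with DMSO and 229 and 218 with DZA at 45 min (3.51-fold lower), but 1922 and 395 in the DMSO libraries of 15 min and 744 and 2755 in the auxin libraries of RAT1-AID. YLL044W (-1.31) and YDR417C (-1.28) also fell after Rrp44 depletion, as did YGL123C-A, from 562 and 425 counts to 252 and 235. There the median of the 10 loci was -1.14 and that of all 81 members -0.38. Without the 10 loci, an alternative chosen after seeing the data, the median of the members was -1.36 at 45 min.

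**Figure D5:**
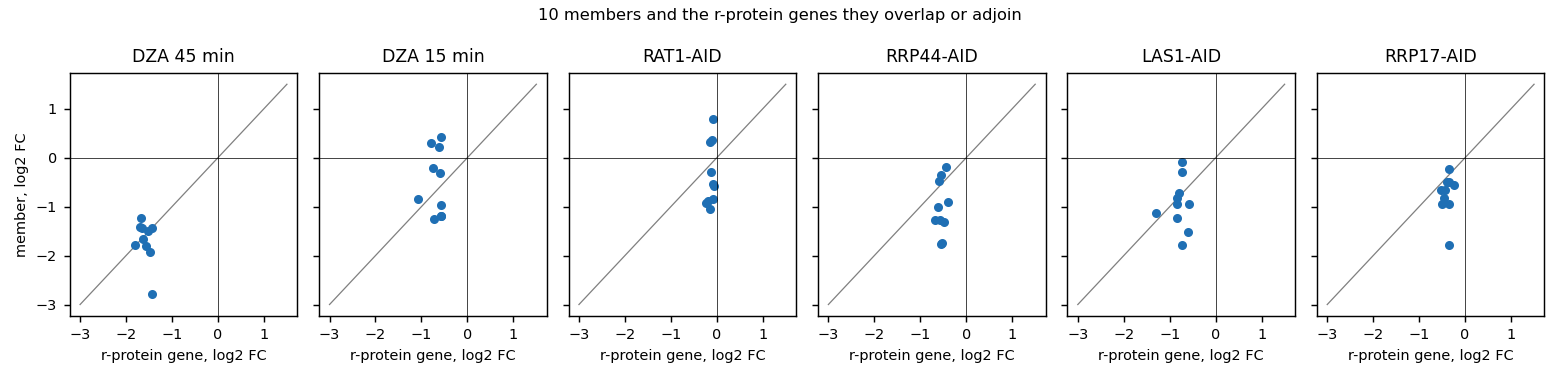
Log2 fold change of each of the 10 short loci (y axis) against that of the r-protein gene it overlaps or adjoins (x axis) in 6 comparisons, with the diagonal of equal change. At 45 min of DZA most points lie near the diagonal (YDR417C at -1.79 with RPL12B at -1.80), and after Rrp44 depletion the loci (median -1.14) lie mostly below it.

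In RRP17-AID the mock columns A and B hold identical values and were taken as 1 library, so no test was made. There 22 of 81 members were at least 1.5-fold lower (2.39% of all features) and 1 was at least 1.5-fold higher (3.39%). The lower ones included YGL188C-A (-1.79), PNS1 (-1.23), PHO84 (-1.19), GDS1 (-1.05) and ADE17 (-1.01), and the higher one was ATP19 (0.65), with 1708 counts in mock and 2290 and 3156 with auxin.

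Diamide has 1 library per time point and so no replicate check. Of the 75 members with a mean of at least 1 RPKM, 21 were at least 2-fold lower (9.03% of all features) and 8 at least 2-fold higher (8.37%). HPT1 went from 114 to 14.5 RPKM, FUI1 from 29.7 to 4.2, RKI1 from 52.4 to 10.1 and ADE17 from 113 to 22.9. The purine and pyrimidine groups had medians of -1.28 and -1.49 on the log2 scale. All 4 iron and phosphate genes (median -1.36) and all 4 translation and ribosome members (median -0.51) lay below 0. The remaining roles went both ways, for example from -0.90 to 2.21 at the cell surface and from -1.92 to 0.52 among sterol and sphingolipid genes. HXK1 went from 61.3 to 572 RPKM (3.22), GPH1 from 15.8 to 105 (2.73), DPI8 from 14.4 to 83.1 (2.52) and PNS1 from 19.4 to 90.2 (2.21). CYT1, SED1, MTH1 and YGL188C were the other 4 that were higher with diamide. All 8 were chosen as lower at 45 min of DZA, so the opposite sign there was fixed by the choice. HXK1 and GPH1 are on the Msn2/4 list of the study, with COA2 and MDH2, and the copy of that list used here may be incomplete. The opposite-strand loci YLR076C and YJL188C were listed at 0 RPKM in both diamide files.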

How the data were processed

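The authors sequenced rRNA-depleted RNA (a stranded kit for the auxin libraries, another protocol for diamide), aligned reads with TopHat 2.1.0 to the yeast genome (R64, sacCer3), counted reads per feature with HTSeq and deposited 1 table per comparison of counts divided by size factors, a signal scale in which each table was normalized separately. Whether the counting used strand is not given in the sources used here. The authors also deposited RPKM values for the 2 diamide libraries. Columns of the deposited tables with the authors' own DESeq2 fit (mean, fold change, error, statistic and p-values) were not used. All remaining columns were mapped to a sample or group (0 unmapped). Whole reads were recovered for 100% of the normalized values of up to 1000 reads, within a tolerance of 0.1 read; larger values were not checked.

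The members, roles and gene lists were chosen with earlier results of these data known. Log2(value + 1) of features with a mean of at least 10 was tested per table with limma 3.58.1 (R 4.3.3, trended variance, two-sided) with Benjamini-Hochberg adjustment at 0.05; differences between depletions were tested as interactions. An exact permutation test cannot pass that threshold with groups of 2. RRP17-AID mock columns A and B are identical and counted as 1 library, and diamide has 1 library per time, so neither was tested. Diamide used log2(RPKM + 0.1) and a mean of at least 1 RPKM. By rule the text names the 15 members with the lowest ratio at 45 min, those on a function list, up to 5 called members with the largest fall and 5 with the largest rise in each tested table with the same sign in both pairs, and the 3 genes just inside and just outside the ratio; members named beyond these were chosen after their values were seen.

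Pairing by letter was checked as the correlation of same-letter deviations, which was 0.577 for 45 min of DZA, -0.084 for 15 min, 0.107 for RAT1-AID, 0.246 for RRP44-AID, 0.184 for LAS1-AID and 0.449 for WT. The auxin duplicates were isolates grown and treated on separate days, so the letter was taken to pair them, whereas DZA libraries share only a letter. The main fits and interactions leave the letter out, and only the replicate block uses it. Alternatives were other pseudocounts, no filter, a mean of at least 100, TMM scaling, median-centring, no trend, a replicate block, edgeR 4.0.16 and DESeq2 1.42.0 on the recovered reads, and each library left out. The scripts were tested on simulated data. Promoters ran from 250 bases before to 50 after the start codon; a symbol was found for 6048 of the 7126 count-table identifiers and for 6006 of the 6777 RPKM identifiers. The promoter sequence of 1 further member is not reported here.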

Additional observations from a re-analysis of the deposited data

Results flagged for a closer look

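The responses of 7 members to 2 depletions differed past the threshold of the limma interaction test (adjusted p over all features). Of all features, 2.44% passed for Las1 against Rat1, 0.805% for Las1 against Rrp44 and 2.17% for Rat1 against Rrp44. Between Las1 and Rat1 depletion the log2 difference was -1.11 for GLN1, 1.18 for HXK1, -0.69 for GDS1 and -3.61 for CIN2. Between Las1 and Rrp44 depletion it was -1.58 for FUI1, -0.71 for HPT1 and -0.78 for YKL069W. Between Rat1 and Rrp44 depletion it was 3.35 for CIN2, which rose after Rat1 depletion and fell after both others. Those for GDS1, FUI1 and HPT1 are larger falls after Las1 depletion, those for GLN1 and YKL069W are falls after Las1 depletion with no call after the other, and that for HXK1 is a fall after Rat1 depletion with a value of 0.28 after Las1 depletion, called only with the replicate block (adjusted p = 0.0279). Of the differences that involve Las1 depletion, only that of CIN2 stayed past the threshold under every setting run. With the replicate block the interaction test of Las1 against Rat1 also passed ADE17, HIS4, MET6 and ADE6. Their adjusted p were 0.0085, 0.0155, 0.0471 and 0.0471, and GDS1 did not pass (0.0552). Causes were not tested.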

How the results depend on the processing

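The count of members called lower moved under alternatives other than leaving out a library. At 15 min of DZA (16) it was 9 without a variance trend (0.602% of all features) and 51 by DESeq2 (6.65%). After Rat1 depletion (11) it was 6 with a mean of at least 100 (5.33%), 2 without a trend (3.17%) and 21 by DESeq2 (8.52%). After Rrp44 depletion (36) it was 23 without a trend (5.66%). The 1 member higher after Las1 depletion became 0 without a trend (13.3%) and by DESeq2 (11.6%). The interaction count of Las1 against Rat1 (4) was 2 and of Las1 against Rrp44 (3) was 0 without a trend. With the replicate block, 28 members fell after Rat1, 2 rose after Rrp44 and 3 rose after Las1 depletion, and the interaction counts were 7, 12 and 2. The block at 15 min of DZA, where libraries share only a letter, called 24 lower (1.51% of all features) and lost HIS1 (adjusted p = 0.0552). The median log2 fold change at 45 min (-1.41) was -1.39 with a pseudocount of 10, TMM or median-centring and -1.36 outside the loci at r-protein genes. At 15 min (-0.79) it was -0.77 with a pseudocount of 10, -0.80 with TMM and -0.77 with median-centring. Outside those loci, an alternative chosen after seeing the data, it was -0.32 for RRP17-AID and 0.044 for WT auxin. For diamide (-0.55) it was -0.54 with a pseudocount of 1 RPKM, -0.47 with median-centring and -0.46 without the filter. The cause was not tested.

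Leaving out each library in turn gave 0 to 67 members lower and 0 to 1 higher at 15 min of DZA, 5 to 13 and 2 to 6 after Rat1, 12 to 51 and 0 to 4 after Rrp44, 51 to 68 and 0 to 1 after Las1 depletion, and 0 to 1 lower with 0 higher in WT auxin. Interaction counts were 1 to 22 for Las1 against Rat1 (22 without Rat1 auxin A), 0 to 7 for Las1 against Rrp44 and 1 to 16 for Rat1 against Rrp44 (16 without Rat1 auxin A). Medians ran from -1.41 to -1.36 at 45 min, -0.83 to -0.74 at 15 min, -0.42 to -0.25 for Rat1, -0.40 to -0.36 for Rrp44, -0.79 to -0.55 for Las1, 0.041 to 0.11 for WT auxin and -0.42 to -0.41 for RRP17-AID. A lone library was assumed to vary like the other group. The share of all features called lower moved with the member counts at 15 min of DZA and after Rrp44 and Las1 depletion. Over 129 single calls, 1477 of 1669 values under alternatives kept their side of the threshold, 192 lost it and 0 reversed.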
